A study of Anser cygnoides with 12 samples.

Results

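Xanthine dehydrogenase, the enzyme that makes uric acid, and genes that carry urate or related organic anions across membranes were followed in the ileum of Yangzhou geese, a domestic goose breed. They were chosen by symbol from a list of 10. Of these, 8 were among the 19836 gene names of the deposited table: XDH, SLC2A9, ABCG2, ABCC4, ABCC2, PDZK1, SLC16A9 and SLC22A7. The symbols SLC17A4 and SLC22A13 were not among those names. The control diet was the basal feed at 18% crude protein. The high protein diet held 21% crude protein, and the lactulose diet was the 21% feed plus 0.3% lactulose, a synthetic disaccharide that gut bacteria ferment. Poly(A) RNA of each diet was sequenced in 4 libraries, which are numbered here as in the labels. The sources used here give no age, sex or genotype, and nothing in the labels says that replicates are separate birds. The p-values therefore measure the spread between these libraries, which may be technical in part.

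Purine rings that are not reused are broken down to hypoxanthine and xanthine, and XDH, a molybdenum enzyme of the cytosol, oxidises both to uric acid. Birds lack a working uricase and excrete most of their nitrogen as uric acid, so that protein intake and urate output are linked in them. Urate is charged at body pH and crosses cell membranes through carriers. In mammals SLC2A9 (GLUT9) passes urate down its gradient, and ABCG2 pumps it out of enterocytes and kidney tubule cells into the lumen. The roles of the other carriers named here are also known mainly from mammals.

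Total counts were 38706155 to 48251825 per library. The smallest counts clustered at 4, with 5063 such values against 1799 at 3 and 1526 at 5. Whether 1 read pair stands for several counts was not tested. Ileal and absorptive markers were present: FABP6, the ileal bile acid binding protein, stood at 621 to 3490 FPKM and villin, VIL1, at 76.8 to 269 FPKM. FPKM, taken here as the authors deposited it, is a level scaled to transcript length and library size. Absorptive cell markers varied widely within each diet, however. Their summed level (27 genes of 30 listed, 0 of them at 0 in every library) spanned 1498 to 5803 FPKM among controls, 1560 to 6533 FPKM under high protein and 1365 to 8135 FPKM under lactulose. The summed level of 9 smooth muscle markers of 10 listed was 2287 to 4595, 2961 to 5345 and 2499 to 7057 FPKM in the same order. Lactulose 3 and 5 resembled each other more than any other pair within a diet did (r = 0.983 across genes, against 0.922 to 0.969), and the lactulose differences of the tested members are also given with the pair averaged as 1 sample. Markers of kidney tubule (5 genes in the table of 8 listed) summed to at most 1.60 FPKM in any library. Those of hepatocytes (4 of 8) summed to at most 3.44 FPKM, from FGG in 1 control library.

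XDH (gene ID 106031596) lies at 3369975 to 3420753 on the minus strand of scaffold NW_025927767.1 and has 5 transcripts in the deposited table. No source used here names the genome build of these positions. XDH stood at 11.2, 14.6, 10.7 and 23.3 FPKM in control 3, 4, 6 and 7. With high protein it stood at 19.5, 7.39, 11.7 and 13.8 FPKM in libraries 1, 3, 4 and 5. With lactulose it stood at 9.76, 23.2, 24.5 and 9.17 FPKM in libraries 2, 3, 5 and 6. Each diet thus held both low and high libraries, and the ranges of the 3 diets overlapped. The gap between lactulose 3 and 5 and lactulose 2 and 6 was wider than that between any of the diet means, 14.9 ± 5.85, 13.1 ± 5.04 and 16.6 ± 8.31 FPKM for control, high protein and lactulose (mean ± SD, n = 4 here and throughout). Over all libraries XDH had a median of 12.7 FPKM and its mean lay at percentile 77.9 of all genes.

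SLC2A9 (ID 106035273; NW_025927666.1, 3461302 to 3590176, plus strand), the facilitative urate carrier that in mammals sits in the basolateral and apical membranes, stood lower. Its level was 4.87, 5.51, 5.85 and 10.1 FPKM in control 3, 4, 6 and 7, 7.95, 4.10, 5.78 and 6.91 FPKM in high protein 1, 3, 4 and 5, and 4.61, 7.89, 8.66 and 5.01 FPKM in lactulose 2, 3, 5 and 6. Libraries high for XDH were also high for SLC2A9: control 7, high protein 1 and lactulose 3 and 5 held ranks 1 to 4 for both genes. Their log2 levels correlated over the 12 libraries at r = 0.953 (rho = 0.909), and at r = 0.963 after the mean of each diet was removed. XDH was above SLC2A9 in all 12 libraries.

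ABCG2 (ID 106041929; NW_025927734.1, 2845260 to 2864756, plus strand) is an ATP-driven exporter of urate in the apical membrane of the mammalian gut. It stood at 22.01, 17.6, 8.32 and 24.2 FPKM in control 3, 4, 6 and 7, at 41.4, 7.33, 23.9 and 23.5 FPKM in high protein 1, 3, 4 and 5, and at 11.5, 46.2, 50.8 and 21.2 FPKM in lactulose 2, 3, 5 and 6. Its highest library was 6.93-fold above its lowest. ABCC2 (MRP2; ID 106045451; NW_025927678.1, 1264657 to 1282199, minus strand), an apical exporter of organic anions and conjugates, varied most of the members, 17.7-fold. It stood at 4.01, 3.62, 0.995 and 7.44 FPKM in the controls, at 9.93, 0.793, 3.96 and 6.03 FPKM with high protein and at 2.03, 11.97, 14.1 and 3.69 FPKM with lactulose, in the same order of libraries. Both exporters were highest in lactulose 5 and 3 and high protein 1 and lowest in high protein 3 and control 6.

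PDZK1 (NHERF3; ID 106040024; NW_025927719.1, 1860008 to 1871189, plus strand) is a scaffold protein of the brush border that tethers transporters, urate carriers among them in mammals. It was the most abundant member, at percentile 98.1 of all genes. Its level was 129.9, 136, 51.8 and 154 FPKM in control 3, 4, 6 and 7, 208, 53.7, 101 and 108 FPKM in high protein 1, 3, 4 and 5, and 68.9, 244, 263 and 93.9 FPKM in lactulose 2, 3, 5 and 6. It was thus high and low in nearly the same libraries as ABCG2, with which its log2 level correlated at r = 0.963 (rho = 0.909). The lowest PDZK1 value was above the highest ABCG2 value.

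SLC16A9 (MCT9; ID 106031627; NW_025927710.1, 5723828 to 5743350, plus strand), a carrier of the monocarboxylate family whose human gene is associated with blood urate, behaved differently. It stood at 27.2, 22.8, 11.8 and 20.2 FPKM in control 3, 4, 6 and 7 and at 15.6, 22.7, 25.6 and 16.8 FPKM in lactulose 2, 3, 5 and 6. With high protein it stayed between 15.4 and 17.3 FPKM in all 4 libraries. Its coefficient of variation there, 5.44%, was the lowest of any member within a diet. The control values enclosed the high protein values, so the groups overlapped.

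ABCC4 (MRP4; ID 106045351; NW_025927726.1, 846995 to 991136, minus strand) is an exporter of nucleotides, conjugates and, in the mammalian kidney, urate. With a mean at percentile 52.2 of all genes, ABCC4 varied 2.74-fold between its lowest and highest libraries. It stood at 1.56, 3.86, 3.78 and 4.27 FPKM in control 3, 4, 6 and 7, at 3.53, 3.89, 2.62 and 2.78 FPKM in high protein 1, 3, 4 and 5, and at 4.17, 4.24, 4.27 and 3.10 FPKM in lactulose 2, 3, 5 and 6. Control 3 was far below the other 11 libraries. SLC22A7 (OAT2; ID 106044736; NW_025927771.1, 2902837 to 2921176, plus strand), an organic anion carrier of mammalian liver and kidney, was at 0 in 7 of the 12 libraries and reached at most 15 counts (0.122 FPKM) in high protein 3 and 14 counts (0.131 FPKM) in lactulose 2. A count of 0 allows up to 3 counts, which is 0.0622 to 0.0775 CPM (the count scaled to library size) in these libraries, for counting error only and in counts rather than read pairs. It did not pass the filter on low counts, so 7 of the 8 members were tested.

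**Figure D1:**
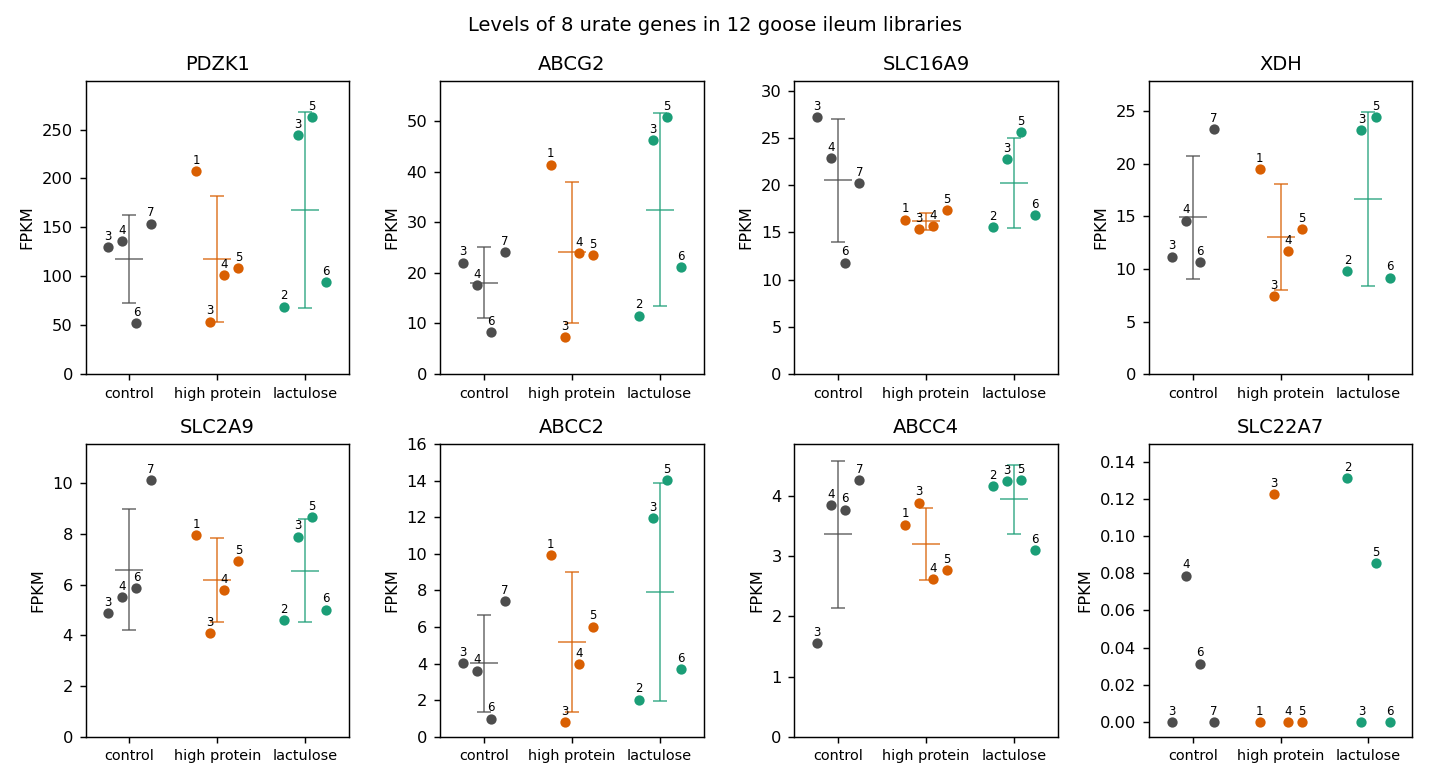
FPKM (linear axis) of the 8 members in each library by diet, in order of their median, with the library number beside each point. Horizontal marks and bars are the mean and SD of 4 libraries (not drawn for SLC22A7, which was at 0 in 7 libraries). In PDZK1, ABCG2, XDH, SLC2A9 and ABCC2 the libraries lactulose 3 and 5 and high protein 1 stand high within their diets.

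By median FPKM the order was PDZK1 (119), ABCG2 (22.7), SLC16A9 (17.1), XDH (12.7), SLC2A9 (5.81), ABCC2 (3.98), ABCC4 (3.82) and SLC22A7 (0). The FPKM ranges of PDZK1 and ABCG2 did not overlap, though their TPM ranges did (TPM rescales FPKM to the same total in each library), and PDZK1 was above ABCG2 in all 12 libraries. The FPKM ranges of ABCC4 and SLC22A7 did not overlap. ABCG2 was above SLC16A9 in 7 of 12 libraries, SLC16A9 above XDH in 9, SLC2A9 above ABCC2 in 9 and ABCC2 above ABCC4 in 8. The order of these neighbours thus changed between libraries, and differences between genes were not tested. ABCC2 and ABCC4 changed places in TPM.

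The first diet comparison asked whether the higher protein intake altered these genes. None of the 7 tested members passed edgeR's quasi-likelihood test over all genes (lowest adjusted p = 0.9997), where 0.0% of the 16075 genes tested passed and 3.17% stood under 0.05 without adjustment (1.31% higher, 1.86% lower). With DESeq2 8 genes passed, 0 of them members. Among the members 0 had an unadjusted p under 0.05, and 0 had groups that did not overlap, against 1.44% of all genes. XDH had a log2 fold change of −0.18 ± 0.42 (SE, here and below) for high protein against control, with a 95% interval of −1.09 to 0.72, that is from 0.471-fold to 1.65-fold. Its sign turned without control 7 (0.08) or high protein 3 (0.04), as did that of SLC2A9 (0.17 and 0.10). The sign of ABCG2 and ABCC2 turned without high protein 1 (−0.02 and −0.18), that of ABCC4 without control 4 or 7 or high protein 4 or 5, and that of PDZK1 without control 3, 4 or 7 or high protein 3, 4 or 5. SLC16A9 had the smallest p, 16.2 ± 0.879 against 20.5 ± 6.49 FPKM (log2 fold change −0.42 ± 0.30, interval −1.07 to 0.24). That difference was −0.09 without control 3 (unadjusted p = 0.738) and −0.63 without control 6 (unadjusted p = 0.0222). ABCG2 stood at 24.03 ± 13.9 against 18.0 ± 7.02 FPKM (0.38 ± 0.58), ABCC2 at 5.18 ± 3.83 against 4.02 ± 2.64 FPKM (0.35 ± 0.79) and PDZK1 at 118 ± 64.7 against 118 ± 45.2 FPKM (−0.04 ± 0.54). SLC2A9 and ABCC4 had log2 fold changes of −0.08 ± 0.31 and −0.05 ± 0.21. The median over the 7 members was −0.05, against −0.02 over all genes tested.

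Lactulose was next compared with the same 21% protein feed without it. Again 0 of 7 members passed (edgeR adjusted p of 0.917 to 0.999), as did 0.0% of all genes (18 in DESeq2, 0 of them members). Of the members 0 had an unadjusted p under 0.05, against 5.65% of all genes (2.31% higher, 3.33% lower), and 0 had groups that did not overlap, against 6.5%. All 7 fold changes were positive, with a median of 0.28 against 0.02 over all genes, and each had an interval that included 0. XDH differed by 0.28 ± 0.42 on the log2 scale (interval −0.63 to 1.18), and by −0.01 without lactulose 5. SLC2A9 turned negative without control 3, high protein 3 or lactulose 3 or 5 (down to −0.20). PDZK1 stood at 167 ± 100.2 FPKM with lactulose (log2 fold change 0.44 ± 0.55), ABCC2 at 7.94 ± 5.96 FPKM (0.55 ± 0.79) and ABCG2 at 32.4 ± 19.0 FPKM (0.36 ± 0.58). These 3 differences were 0.10, 0.09 and 0.02 without lactulose 5 and 0.87, 1.07 and 0.75 without high protein 1. With lactulose 3 and 5 averaged as 1 sample, they were 0.14, 0.18 and 0.07, and that of XDH was 0.02. ABCC4 stood at 3.95 ± 0.567 against 3.205 ± 0.607 FPKM (0.23 ± 0.21), SLC16A9 at 20.2 ± 4.78 FPKM (0.25 ± 0.30) and SLC2A9 at 6.55 ± 2.03 against 6.18 ± 1.65 FPKM (0.00 ± 0.31). With the pair as 1 sample these were 0.15, 0.12 and −0.16. Without lactulose 5 ABCC4 stood at 0.15 and SLC16A9 at 0.07, and without lactulose 2 SLC16A9 stood at 0.39.

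Lactulose was also set against the control diet, a comparison that shares its libraries with both others. Of the members, 0 of 7 passed (edgeR adjusted p of 0.827 to 0.980; 0.0% of all genes passed, and DESeq2 called 22, 0 of them members). Of the members 0 had an unadjusted p under 0.05, against 6.2% of all genes (2.26% higher, 3.94% lower), and 0 had groups that did not overlap, against 3.21%. The exporters ABCC2 and ABCG2 had the largest differences, with log2 fold changes of 0.90 ± 0.79 (interval −0.82 to 2.62) and 0.74 ± 0.58 (−0.53 to 2.00). XDH differed by 0.09 ± 0.42 (−0.81 to 0.996), SLC2A9 by −0.08 ± 0.31, PDZK1 by 0.41 ± 0.55, ABCC4 by 0.18 ± 0.21 and SLC16A9 by −0.17 ± 0.30. ABCC4 was 3.37 ± 1.22 FPKM in controls with control 3 at 1.56 FPKM, and its difference was −0.0016 without that library. XDH turned negative without control 6 (−0.07), lactulose 3 (−0.13) or lactulose 5 (−0.19), SLC2A9 positive without control 7 (0.17), lactulose 2 (0.09) or lactulose 6 (0.04), and SLC16A9 positive without control 3 (0.15). PDZK1 ranged from 0.07 without lactulose 5 to 0.69 without lactulose 2. ABCG2 and ABCC2 stood at 0.40 and 0.44 without lactulose 5 and at 0.48 and 0.57 without control 6. With lactulose 3 and 5 as 1 sample ABCG2 stood at 0.45, ABCC2 at 0.53, PDZK1 at 0.11, ABCC4 at 0.11, XDH at −0.16, SLC2A9 at −0.24 and SLC16A9 at −0.30. A 2-fold higher level of ABCG2, ABCC2 or PDZK1 lay inside these intervals in each of the 3 comparisons.

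**Figure D2:**
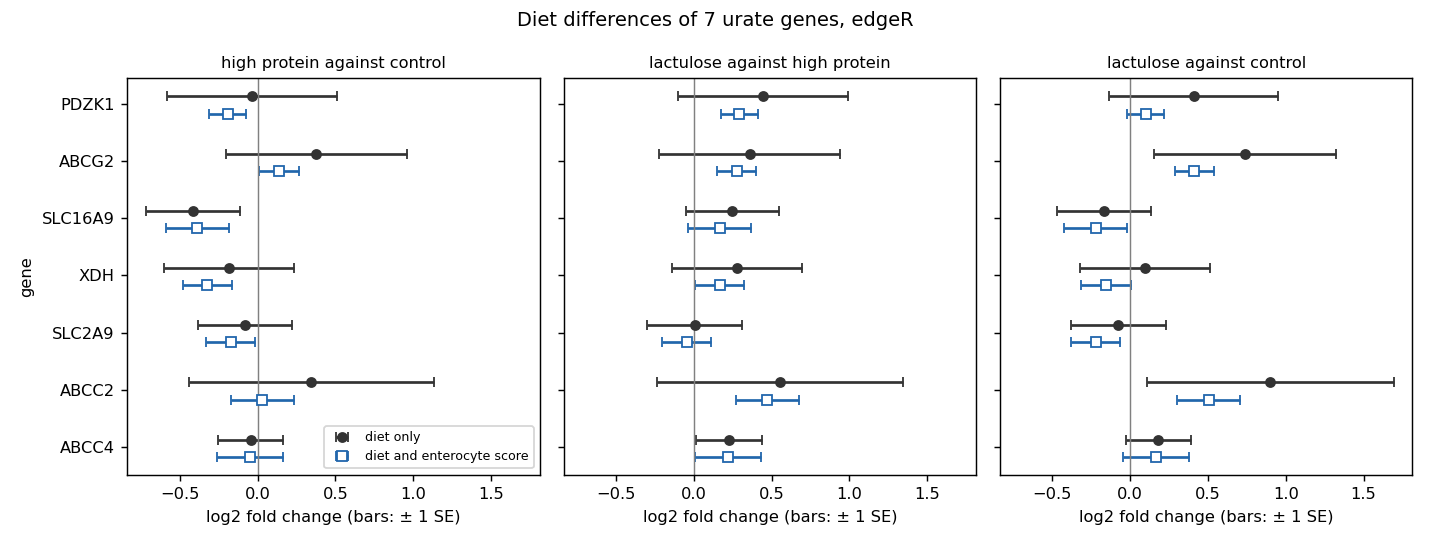
Log2 fold change of the 7 tested members in the 3 diet comparisons, with bars of ± 1 SE from edgeR. Filled circles are from the fit with diet alone and open squares from the fit that also holds the enterocyte score. No member passed the adjusted threshold in either fit, and the bars are shorter with the score for each member but ABCC4.

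For most of the tested members the spread within diets followed the absorptive cell markers. An enterocyte score was computed for each library as the mean centred log2 level of 27 enterocyte markers, none of them a member. It ranged from −1.56 (control 6) to 0.57 (control 7) in controls, from −1.41 (high protein 3) to 1.06 (high protein 1) with high protein and from −1.50 (lactulose 2) to 1.26 (lactulose 5) with lactulose. In an edgeR fit with diet and score, 6 of 7 members rose with the score, against 8.37% of all genes that passed in that direction, and 0 of 7 fell, against 4.32%. Per unit of score, that is for a 2-fold higher mean level of the markers, ABCC2 rose by 1.27 ± 0.09 on the log2 scale (adjusted p = 1.372e-05), ABCG2 by 0.90 ± 0.06 (adjusted p = 5.109e-06) and PDZK1 by 0.82 ± 0.05 (adjusted p = 5.109e-06). XDH rose by 0.57 ± 0.07 (edgeR adjusted p = 0.000236), SLC2A9 by 0.39 ± 0.07 (adjusted p = 0.00244) and SLC16A9 by 0.34 ± 0.09 (adjusted p = 0.0238). With high protein, however, SLC16A9 was nearly flat, at 16.4 FPKM in library 1 (score 1.06) and 15.4 FPKM in library 3 (score −1.41). ABCC4 had a slope of 0.04 ± 0.09 (interval −0.14 to 0.23; adjusted p = 0.819), and the difference between its slope and those of the others was not tested. In bulk tissue, fewer cells of a type and less RNA per cell cannot be told apart. Markers of ileum position, FABP6 among them (7 of 7 listed, CUBN and AMN shared with the score), also varied. Their sum is mostly FABP6 (mean 1799 FPKM, against 61.1 FPKM for SLC10A2, the next highest). The summed level was 674, 647 and 676 FPKM in control 6, high protein 3 and lactulose 2, which were low in score. In high protein 1 and lactulose 3 and 5, high in score, it was 3589, 3103 and 3212 FPKM. Control 3 and 7, at scores of 0.52 and 0.57, had 3143 and 1022 FPKM. By diet the median of this sum was 995 FPKM in controls, 2103 with high protein and 2375 with lactulose, and the ranges overlapped. Whether position along the gut goes with the score or with diet was not tested.

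Over the 12 libraries the log2 levels correlated with the score at r = 0.980 for PDZK1 (rho = 0.965), 0.971 for ABCG2 (0.923), 0.965 for ABCC2 (0.972), 0.923 for XDH (0.923), 0.881 for SLC2A9 (0.881), 0.746 for SLC16A9 (0.790) and 0.131 for ABCC4 (0.462). The median over all genes tested was −0.02, and score and genes share the same libraries. With the diet means removed, r was 0.990 for PDZK1 and 0.944 for XDH. Without lactulose 2 and control 6, the libraries farthest from the median score, it was 0.976 and 0.950, and 0.562 for SLC16A9. The SLC16A9 call was lost without control 6 (slope 0.25, edgeR adjusted p = 0.1145), without lactulose 2 (0.35, 0.0966), without lactulose 5 (0.33, 0.0729) and with lactulose 3 and 5 as 1 sample (0.345, 0.0586), all tests added, like that of the score itself, after seeing the data. The other 5 calls held under those changes, with slopes of 0.55 to 0.61 for XDH when a library was left out. Over all genes 2040 passed for the score, and 960, 1050, 1257 and 1240 without control 6 and lactulose 2, 3 and 5.

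**Figure D3:**
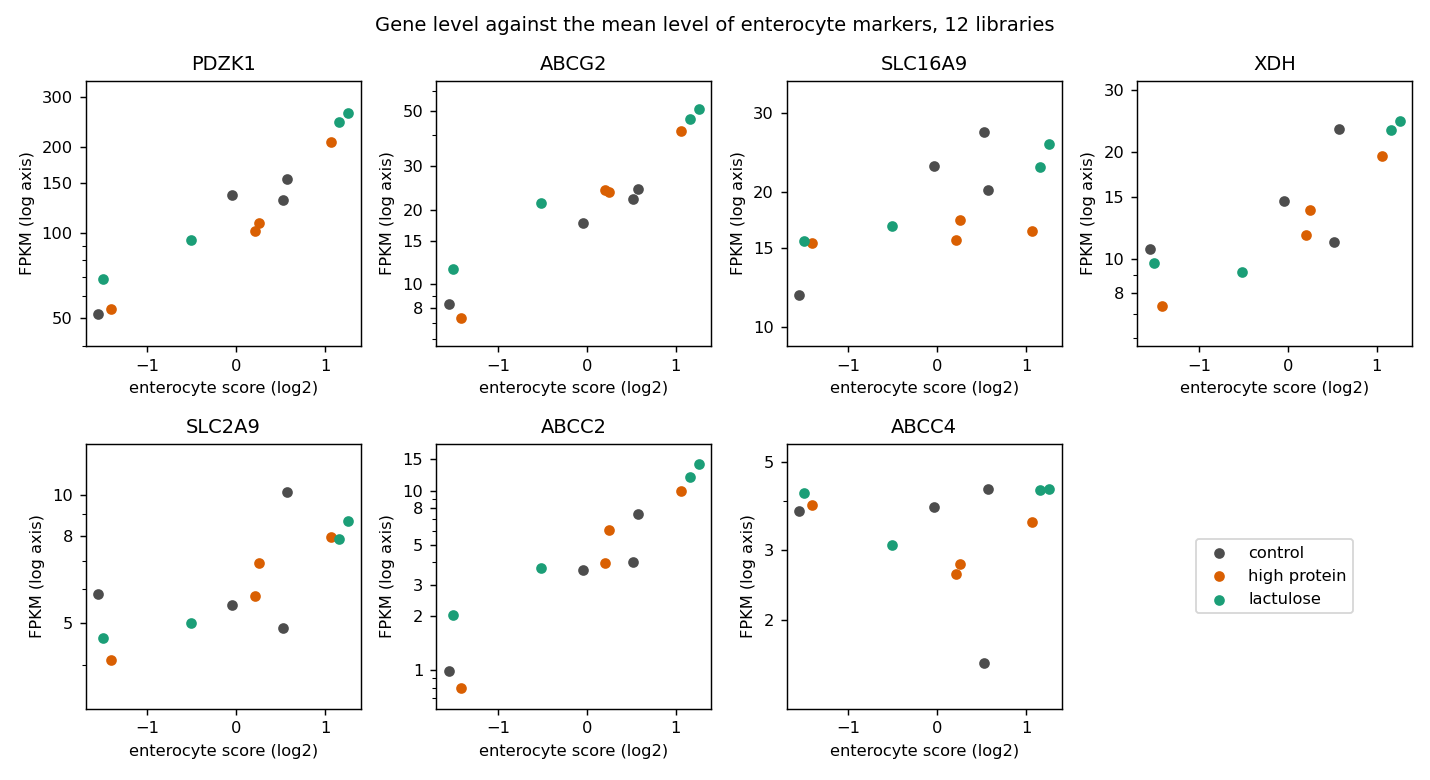
FPKM (log axis) of each tested member against the enterocyte score (mean centred log2 level of 27 markers), 1 point per library, coloured by diet. PDZK1, ABCG2 and ABCC2 rise along the score in all 3 diets, and XDH and SLC2A9 scatter more. Among controls SLC2A9 was lower in control 3 (4.87 FPKM, score 0.52) than in control 6 (5.85 FPKM, score −1.56). XDH was lower in control 3 (11.2 FPKM) than in control 4 (14.6 FPKM, score −0.04). ABCC4 had a slope of 0.04 per unit of score.

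Diet differences were then read from the fit that held the score, that is between libraries of equal score. The score comes from the same libraries, and whether it responds to diet itself was not tested. These values therefore answer a different question from the fit with diet alone. For high protein against control XDH stood at −0.32 ± 0.16 (unadjusted p = 0.0652, edgeR adjusted p = 0.758), and 0 of 7 members had an unadjusted p under 0.05, against 6.8% of all genes. XDH differed by 0.17 ± 0.16 when lactulose was set against high protein, and by −0.16 ± 0.16 when it was set against control. ABCG2 kept a positive value for lactulose against control, 0.41 ± 0.13 (unadjusted p = 0.00749, adjusted p = 0.389), as did ABCC2, 0.50 ± 0.20 (0.0291, 0.456). For lactulose against high protein ABCC2 stood at 0.47 ± 0.20 (0.0387, 0.572) and PDZK1 at 0.29 ± 0.12 (0.0313, 0.559). These are 2 of 7 members with an unadjusted p under 0.05 in each lactulose comparison, where 8.4% of all genes (against high protein) and 10.5% (against control) had one in the same fit, and 0 of 7 passed after adjustment. With lactulose 3 and 5 also averaged as 1 sample, ABCG2 stood at 0.45 and ABCC2 at 0.58 against control (unadjusted p = 0.00919 and 0.0253, edgeR adjusted p = 0.804 for both). Against high protein ABCC2 then stood at 0.56 (unadjusted p = 0.0325) and PDZK1 at 0.29 (unadjusted p = 0.0599), with an adjusted p of 0.976 for both.

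**Figure D4:**
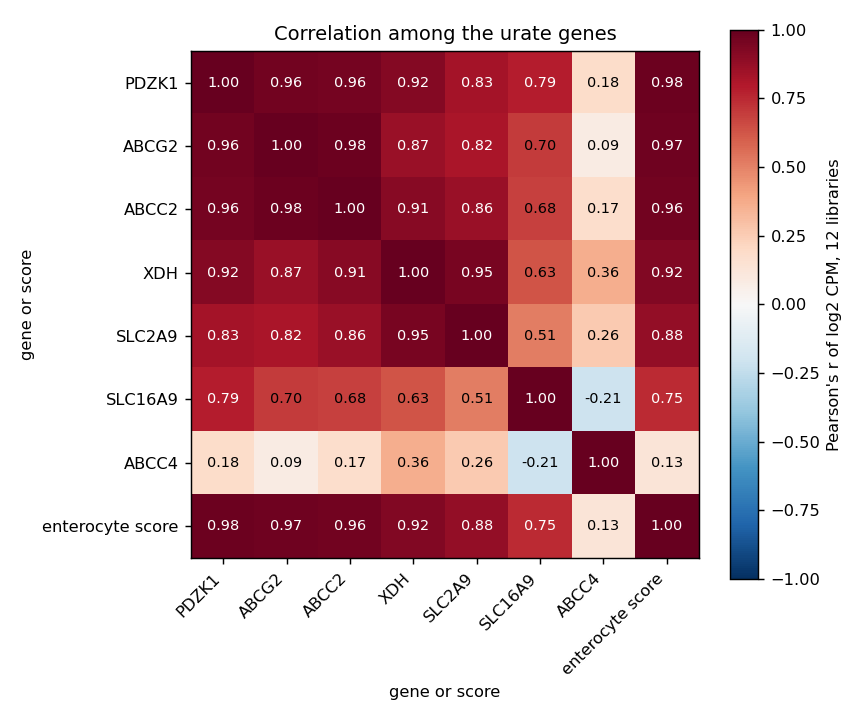
Pearson's r of log2 CPM over 12 libraries between each pair of the 7 tested members and with the enterocyte score. PDZK1, ABCG2 and ABCC2 correlate at 0.960 to 0.980 with each other, XDH and SLC2A9 at 0.953, and ABCC4 at no more than 0.365 with any other. By rank (not drawn) ABCC4 correlates with the others at rho = 0.231 to 0.559.

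The members also differed in the genes most like them over the 12 libraries, by r of log2 CPM among genes with a symbol. PDZK1 was most like VIL1, the actin bundler of microvilli (r = 0.993), PEPD, a peptidase (0.987), and SLC5A1, the sodium-glucose carrier (0.984). ABCG2 was most like ABCC2 (0.980), SLC5A11, a sodium-coupled inositol carrier (0.976), and the apolipoprotein APOA1 (0.974), and ABCC2 was most like ABCG2, FGFR4 (0.978) and VIL1 (0.976). VIL1, SLC5A1 and APOA1 are among the score's markers. XDH was most like ENTPD5, a nucleoside diphosphatase of the endoplasmic reticulum (0.984), the phosphatase PHLPP1 (0.977) and ADGRG6 (0.977). SLC2A9 was most like ACSS1, a mitochondrial acetyl-CoA synthetase (0.968), EPS8L2 (0.968) and GSDMA (0.966). SLC16A9 was closest to CXADR (0.955), FAM214B (0.954) and LURAP1L (0.953), and ABCC4 to ATXN1L (0.970), VPS13B (0.967) and ZBTB21 (0.966). In each case the 3 genes are those with the highest r among all tested genes with a symbol, so the values are descriptions.

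Around the members, 7 lists of related genes were read, with 84 tested genes in all. At an unadjusted p under 0.05 these held 5 genes for high protein against control (0 higher, 5 lower; 3.17% of all genes), 5 where lactulose was compared with high protein (3 higher, 2 lower; 5.65%) and 4 where it was compared with control (1 higher, 3 lower; 6.2%). After adjustment over all genes 0 passed in each comparison. For the enterocyte score 27 of the 84 rose, against 8.37% of all genes, and 3 fell, against 4.32%. With lactulose 3 and 5 as 1 sample the unadjusted p was above 0.05 for AMPD2 (0.0769), ABCC6 (0.0556), SOD2 (0.0545) and, against control, ABCB11 (0.0761), and under it for the other lactulose differences named below.

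Other urate and organic anion transport genes numbered 12 tested of 23 listed, with median log2 fold changes of 0.07, 0.30 and 0.24 in the order of the comparisons above, against −0.02, 0.02 and 0.0004 over all genes. Of the 12, 8 rose with the score (8.37% of all genes did) and 1 fell (4.32%). The most abundant were SLC9A3R1 (NHERF1, another brush border scaffold) at 88.8 to 345 FPKM, PDZK1IP1, the membrane partner of PDZK1, at 17.4 to 365 FPKM, and SLC5A12, a sodium-coupled lactate carrier, at 1.34 to 143 FPKM. PDZK1IP1 rose by 1.49 ± 0.10 per unit of score (edgeR adjusted p = 5.629e-06). SLC22A15 stood at 5.90 ± 0.941 FPKM in controls, 4.09 ± 0.842 with high protein and 6.14 ± 1.62 with lactulose (edgeR unadjusted p = 0.04715 for high protein against control). That log2 fold change, −0.53, ranged from −0.71 to −0.42 when a library was left out. It was smallest in size without high protein 3 (edgeR unadjusted p = 0.127). SLC2A6 stood at 2.24 ± 0.535 FPKM under lactulose and 3.56 ± 0.410 under high protein (unadjusted p = 0.0177).

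The purine breakdown list held 19 tested genes of 21, and only AMPD2, an AMP deaminase, had an unadjusted p under 0.05 in a diet comparison. It stood at 12.8 ± 1.61 FPKM with lactulose against 9.07 ± 1.10 under high protein (unadjusted p = 0.0218). The most abundant genes on the list were the nucleotidases NT5C3A (33.1 to 59.4 FPKM) and NT5C1B (31.4 to 53.4 FPKM) and adenosine deaminase, ADA (12.8 to 52.7 FPKM). ADA rose by 0.66 ± 0.11 per unit of score (edgeR adjusted p = 0.00257). Whether NT5C3A acts on purine nucleotides was not tested. In the salvage list, 5 tested of 9, HPRT1, which returns hypoxanthine to the nucleotide pool, stood at 43.9 to 67.7 FPKM, ADK at 19.96 to 26.5 and DGUOK at 9.35 to 15.1 FPKM. APRT, which salvages adenine, stood at 6.62 ± 0.589 FPKM with lactulose against 8.22 ± 1.34 with high protein and 8.83 ± 1.12 in controls (unadjusted p = 0.0234 against high protein and 0.00489 against control). The molybdenum cofactor list, 7 tested of 11, had 0 genes under that threshold in any diet comparison. Its most abundant genes were MTARC2 (62.6 to 115.5 FPKM), NFS1 (15.0 to 24.5 FPKM) and AOX1, aldehyde oxidase, the closest relative of XDH (18.7 to 32.9 FPKM), which rose by 0.27 ± 0.04 per unit of score (edgeR adjusted p = 0.00222).

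Of 12 tested ABC transporters related to the members (14 listed), ABCG5 and ABCG8, the sterol exporter pair, were the most abundant at 10.7 to 61.4 and 4.68 to 78.0 FPKM. They rose by 0.95 ± 0.07 and 1.37 ± 0.09 per unit of score (edgeR adjusted p = 9.52e-06 and 6.603e-06). ABCC3 (MRP3) stood at 11.5 ± 0.458 FPKM with high protein against 14.7 ± 2.62 in controls (unadjusted p = 0.0155). ABCC6 stood at 7.43 ± 0.376 FPKM under lactulose against 4.85 ± 1.55 under high protein (unadjusted p = 0.0216). ABCB11, the bile salt exporter of the liver, was at most 0.686 FPKM in any library, with an unadjusted p of 0.0061 for lactulose when set against high protein and 0.0202 when set against control. Among 15 tested transcription factors that control such genes in mammals (18 listed), IRF1 (66.1 to 127 FPKM), NFE2L2 (26.9 to 51.9 FPKM) and NR1H4, the bile acid receptor FXR (24.04 to 66.4 FPKM), were the most abundant. NR1H4 stood at 31.8 ± 8.20 FPKM with high protein against 49.3 ± 15.1 in controls (unadjusted p = 0.0387). Its log2 fold change of −0.70 became −0.36 without control 3 (unadjusted p = 0.19).

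XDH can release superoxide and hydrogen peroxide, and 14 of 16 listed redox enzymes were tested. PRDX1, a peroxiredoxin, stood at 707 ± 262, 503 ± 111.8 and 370 ± 64.2 FPKM with control, high protein and lactulose (unadjusted p = 0.00798 for lactulose against control). SOD2, the mitochondrial superoxide dismutase, stood at 138 ± 25.5, 126 ± 11.8 and 111 ± 6.47 FPKM in the same order (unadjusted p = 0.0486 for lactulose against control). Without control 3 that log2 fold change went from −0.46 to −0.18 (unadjusted p = 0.202). SOD3 and TXNRD1 stood at 13.9 ± 1.53 and 20.8 ± 2.78 FPKM with high protein against 23.0 ± 9.74 and 30.5 ± 5.62 FPKM in controls (edgeR unadjusted p = 0.0230 and 0.0222). The log2 fold change of SOD3, −0.74, ranged from −0.96 to −0.49 when a library was left out. Among these it was smallest in size without control 7 (edgeR unadjusted p = 0.0981). With the replicate number as a block it was −0.28 (edgeR unadjusted p = 0.361). GPX3 (218 to 480 FPKM) and TXN (193 to 757 FPKM) were the other most abundant genes of the list. Of the 14, 3 rose with the score (8.37% of all genes did) and 2 fell (4.32%), GPX3 among the latter (−0.26 ± 0.06 per unit, edgeR adjusted p = 0.00967).

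For the symbols not among the gene names, lines of the table whose deposited description names such a protein were looked up after values were seen. LOC106038016 (NW_025927874.1, 640882 to 644375, minus strand), described as a probable small intestine urate exporter, stood at 3.10, 1.56, 2.72 and 1.56 FPKM in control 3, 4, 6 and 7, at 2.42, 2.53, 3.35 and 1.16 FPKM in high protein 1, 3, 4 and 5, and at 4.86, 3.21, 2.41 and 5.49 FPKM in lactulose 2, 3, 5 and 6. Its highest libraries, lactulose 6 and 2, are the lactulose pair in which XDH was low. In high protein 3, where XDH was lowest of all libraries, it stood at 2.53 FPKM, and its correlation with XDH was not computed. Its slope on the score was −0.10 ± 0.17 (edgeR adjusted p = 0.774). For lactulose against control its log2 fold change was 0.66 ± 0.39 (edgeR unadjusted p = 0.119, adjusted p = 0.798). That value ranged from 0.47 to 1.03 when a library was left out (edgeR adjusted p of 0.6048 to 0.9435). It was highest without control 3 (edgeR unadjusted p = 0.0201), the removal that favoured the difference most. LOC106036790 (NW_025927684.1, 3778632 to 3786911, plus strand), described as SLC22A13-like, ranged from 0.2545 FPKM in control 6 to 5.08 FPKM in lactulose 5 and rose by 1.33 ± 0.19 per unit of score (adjusted p = 0.000851). A further SLC22A13-like line, LOC106036800, was at 0 in 7 libraries and at most 0.152 FPKM, and LOC106033995, described as uricase by its match in duck, stood at 0.0304 to 0.174 FPKM. Close copies can share reads, so the split between the SLC22A13-like lines is uncertain.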

How the data were processed

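The authors deposited 1 table that gives each gene and library a raw count and a value in FPKM, per the file headers. Tools listed in the submitters' processing notes, without role or order, are cutadapt 1.9, HISAT2 2.2.1, StringTie 2.1.6, edgeR and DESeq2. No source used here names the genome build or says whether counting used strand. Columns were matched to samples by library name, and 0 columns belonged to other samples. Total counts were 38706155 to 48251825 per library.

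Members were found by gene name. Members, gene lists and markers were chosen with earlier results of these data known, and the test of the enterocyte score was added after seeing the data. For 687 of 7268 genes with a LOC name, a symbol came from a RefSeq table of another goose assembly, matched by gene ID.

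Counts were tested with edgeR 4.0.16 (R 4.3.3; TMM, filterByExpr with minimum count 10, quasi-likelihood, two-sided) on all 12 libraries with diet as the term. Adjusted p-values are Benjamini-Hochberg over 16075 genes, with a threshold of 0.05. Each SE was derived from the fold change and its F statistic. The score fit added the mean centred log2 CPM of 27 markers as a covariate. Alternatives were DESeq2 1.42.0, limma 3.58.1 on log2(FPKM + 1) and log2(FPKM + 0.1), DESeq2 size factors in edgeR, no filter, minimum count 40, counts divided by 4, the 2 groups alone, a replicate block, lactulose 3 and 5 as 1 sample (also together with the score, added after seeing the data), TPM for the order of levels, and each library left out. The code was tested on simulated counts. From each list the text names the 3 genes of highest mean FPKM and those with an unadjusted p under 0.05 in a diet comparison.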

Additional observations from a re-analysis of the deposited data

Results flagged for a closer look

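A library far from the rest was searched for in 33 groups of 4 libraries (the tested members, the related lines and the enterocyte score, in each diet). Of these groups 1 stood out, and chance gives about 1 in 20, so 1 such group is not beyond chance. ABCC4 was at 3.10 FPKM in lactulose 6, while lactulose 2, 3 and 5 lay between 4.17 and 4.27 FPKM, a gap of 0.912 of the group's range.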

How the results depend on the processing

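The count of 0 genes past the edgeR threshold became 8, 18 and 22 with DESeq2 for high protein against control, lactulose against high protein and lactulose against control, and 1 with either limma fit or without a filter in the first and the third. It was 0 to 1 in each when a library was left out, and 0 of the 7 members passed in any of the 504 recomputed diet values (lowest adjusted p = 0.338). Of these values 461 kept their sign and 43 turned, all from differences smaller than their SE; the cause was not tested. For the score 1266 genes passed with lactulose 3 and 5 as 1 sample, and 960 to 2944 when a library was left out. For TPM, 6 of 8 places in the order of levels were kept.

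Replicate numbers are shared by 2 pairs in each comparison, and libraries of the same number deviated together at r = −0.13 to 0.20. No such r was computed for libraries of different numbers, so whether the numbers pair them was not tested. With the replicate block 0 genes passed in each comparison. High protein against control then turned for ABCG2 (−0.46) and ABCC2 (−0.68), and lactulose against control for SLC2A9 (0.19) and LOC106033995 (0.0733). For lactulose against high protein the block moved XDH from 0.28 to 1.04 (unadjusted p = 0.0144), ABCG2 from 0.36 to 1.60 (0.02645), ABCC2 from 0.55 to 2.21 (0.0209) and PDZK1 from 0.44 to 1.63 (0.00352, edgeR adjusted p = 0.338). These are 4 of 7 members with an unadjusted p under 0.05, against 9.44% of all genes under the block and 0 of 7 without it. The 2 diets share numbers 3 and 5, with enterocyte scores of 1.16 and 1.26 in lactulose and −1.41 and 0.25 in high protein. A library whose number no other library has is fitted exactly by the block. High protein 1 (score 1.06), lactulose 2 (−1.50) and control 7 are such libraries and add nothing to the block's differences. These values thus rest on fewer libraries than the main fit, with less left to estimate the spread. The 4 members correlate with each other at r = 0.865 to 0.980, so they are not 4 separate results. A block together with the score was not tested. For lactulose against control 1 of 7 members had an unadjusted p under 0.05 with the block (ABCC2, 1.52, edgeR unadjusted p = 0.0487), against 4.54%. For high protein against control it was 0 of 7, against 4.07%.

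For high protein against control ABCC4 was 0.007 with limma on log2(FPKM + 0.1). For lactulose against high protein SLC2A9 was −0.0027 without a filter, −0.0022 from the 2 groups alone, −0.0477 with the score as a covariate, −0.16 with lactulose 3 and 5 as 1 sample and −0.0644 with both. For lactulose against control XDH was −0.16 with either and −0.19 with both. SLC16A9 was 0.0084 and 0.0108, and LOC106033995 0.0041 and 0.0356, with limma on log2(FPKM + 1) and log2(FPKM + 0.1), and LOC106033995 was 0.0223 with the score.

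With each library left out in turn, high protein against control ranged from −0.45 to 0.0779 for XDH, −0.23 to 0.17 for SLC2A9, −0.0166 to 0.69 for ABCG2, −0.22 to 0.0826 for ABCC4, −0.18 to 0.75 for ABCC2, −0.46 to 0.22 for PDZK1, −0.63 to −0.09 for SLC16A9, −0.63 to 0.14 for LOC106036790 and −0.25 to 0.40 for LOC106038016. Lactulose against high protein ranged from −0.0064 to 0.54 for XDH and −0.20 to 0.17 for SLC2A9. Lactulose against control ranged from −0.19 to 0.35 for XDH, −0.28 to 0.17 for SLC2A9, −0.0016 to 0.31 for ABCC4, −0.38 to 0.15 for SLC16A9 and −0.21 to 0.14 for LOC106033995. The slope of LOC106033995 on the score ranged from −0.19 to 0.0011. The slopes of SLC9A3R1, SLC5A12, NT5C1B, ADK and IRF1 lost their call without at least 1 library.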
